A study of Mus musculus with 6 samples.

Results

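The 31 genes described here encode RNA-binding proteins that regulate splicing, stability and translation of messages in neurons and other cells. They were listed by family (Elavl, Rbfox, Celf, Ptbp, Mbnl, Khdrbs, Srrm, Msi, Fubp and Qk) and not by their measured values, though earlier results of these data were known. All 31 were found among the 24264 genes of the deposited table, with Ptbp3 under its older symbol Rod1. All 31 passed the filter on low values that left 13118 genes for testing. Polyadenylated RNA was sequenced from lumbar dorsal root ganglia, the clusters of sensory nerve cell bodies beside the lower spinal cord, of mouse embryos at E12.5. The first group holds 3 miR_cKO libraries of mice homozygous for miR-183-96-182-flox, a floxed allele of a cluster of 3 microRNA genes, that carry Wnt1-Cre, in which regulatory sequence of Wnt1 drives Cre in the neural crest and dorsal neural tube. The second holds 3 control libraries, of which controls 1 and 3 are titled Wnt-Cre and control 2 is titled WT. All 6 share the mixed C57/Bl6 x 129/SvEv background. The mice came from crosses of floxed heterozygotes, and the labels state neither the floxed allele's state in the controls nor whether a library pooled embryos. The comparison asks which of these messages differ when the cluster is deleted.

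RNA-binding regulators of this kind act in families of closely related proteins that often bind the same short motif and replace each other as a cell matures. In developing neurons, PTBP1 gives way to PTBP2, which releases a set of neuronal exons from repression, while neuronal ELAVL (Hu), RBFOX, CELF and SRRM4 proteins promote neuronal splice forms or stabilise neuronal messages. MBNL proteins promote mature splice forms and often act against CELF proteins on the same exons. MicroRNAs lower messages that carry matches to their seed, mostly in the 3 prime untranslated region (UTR).

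Values are RPKM, reads per kilobase of transcript per M mapped reads, a unit that allows different genes to be compared by level. Depth, estimated from the smallest steps between values, was 20.8 to 22.4 M reads in miR_cKO and 20.2 to 24.2 M reads in control libraries. Mir183, Mir96 and Mir182 were listed at 0 in all 6 libraries, and since libraries of polyadenylated RNA hold few microRNA precursors, these values do not check the deletion. The sensory neuron genes Isl1 and Pou4f1 were present at 66.1 RPKM or more in each library. Libraries stood apart in several ways. Muscle markers summed to 10.2, 15.4 and 26.5 RPKM in miR_cKO 1 to 3 and to 12.6, 181 and 131 RPKM in controls 1 to 3, with none of the 10 markers at 0 in every library. Summed sensory neuron markers were 5448, 4567 and 3599 RPKM in miR_cKO 1 to 3 and 4774, 3763 and 4735 RPKM in controls 1 to 3. Mesenchyme markers summed to 198, 266 and 299 RPKM in miR_cKO 1 to 3 and to 226, 387 and 421 RPKM in controls 1 to 3, and glial markers to 865 to 982 RPKM in miR_cKO and 823 to 1096 RPKM in controls. The 4 red cell markers found summed to 3284, 6281 and 6494 RPKM in miR_cKO 1 to 3. Their sums were 9526, 4951 and 1699 RPKM in controls 1 to 3. Xist, which coats the silenced X chromosome, reached 96.0 RPKM in miR_cKO 1 and at most 0.0890 RPKM elsewhere. In whole ganglia, fewer cells of a type and less RNA per cell cannot be told apart.

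The mature microRNAs of the cluster are shown because their seeds define the sites searched in the regulators' messages. Sequences are from RefSeq (GRCm38.p6, chromosome 6, minus strand), 5′ to 3′, with the seed, bases 2 to 8, in capitals.
mmu-miR-183-5p: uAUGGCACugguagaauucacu
mmu-miR-96-5p: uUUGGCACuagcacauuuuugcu
mmu-miR-182-5p: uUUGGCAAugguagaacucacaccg
The seeds of miR-96 and miR-182 differ in their last base alone and share the 7mer site TGCCAAA. The other 7mer sites are GTGCCAA for miR-96, TTGCCAA for miR-182, and GTGCCAT and TGCCATA for miR-183. An 8mer site joins both 7mers (GTGCCAAA, TTGCCAAA and GTGCCATA), and overlapping matches were counted once. Sites were searched on the transcript strand in the 3 prime UTRs of all complete coding transcripts of a gene in GENCODE M21 (mm10).

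At least 1 site was found in 19 of the 31 regulators (61.3%), against 37.2% of the 12118 tested genes with a 3 prime UTR. These regulators have long 3 prime UTRs, with a median of 2610 bases. Of the 15 regulators with a 3 prime UTR between the quartiles of all 31 (1540 to 4475 bases), 8 held a site (53.3%), against 56.3% of the 4334 tested genes in that range. An 8mer was found in 12 of the 31 regulators (38.7%), against 10.3% of all tested genes with a 3 prime UTR. Within the range of lengths it was found in 5 of 15 regulators (33.3%), against 15.0% of tested genes. A gene counted if any of its complete coding transcripts held the site, and numbers of transcripts were not matched. In all, the regulators held 45 sites, 17 of them 8mers. A site is a match of letters, not a measured interaction.

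Celf6 is shown in full because it had the largest change among the regulators. It holds a match to each of the 3 microRNAs, as do other regulators. Qk and Srrm4 are among these, with log2 changes of 0.082 and 0.090. Celf6 lies at chr9:59577917-59607292 (mm10, plus strand). The stretches of 30 bases end with the site, which is in capitals.
Celf6, miR-96 7mer at chr9:59606200-59606206: ggaaccagcagagggcctcggggGTGCCAA
Celf6, miR-182 8mer at chr9:59607103-59607110: acctgggagggaagtagatgttTTGCCAAA
Celf6, miR-183 8mer at chr9:59607264-59607271: gtctgtatgttgtgtacagtggGTGCCATA
The first site is in the 3 prime UTR of 4 of 4 complete coding transcripts, and both 8mers are in 3 of them. Its UTR of 1341 bases is shorter than the median of the regulators.

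The next set is shown to compare Celf6 with regulators that also hold sites. Celf5 (chromosome 10, minus strand) holds 3 7mers and no 8mer, and Celf2 (chromosome 2, minus strand) holds 8mers for miR-183 and miR-96. Rbfox2 (chromosome 15, minus strand) holds an 8mer and was lower in miR_cKO.
Celf5, miR-96 7mer at chr10:81460107-81460113: gttggtggtctttttctaagtgaGTGCCAA
Celf5, shared miR-96 and miR-182 7mer at chr10:81460535-81460541: cagaccagctgaggccggctggaTGCCAAA
Celf5, miR-183 7mer at chr10:81461209-81461215: tcaggtagaaacccccggatggcTGCCATA
Celf2, miR-183 8mer at chr2:6543642-6543649: gttcctgctgttgctctcgaaaGTGCCATA
Celf2, miR-96 8mer at chr2:6544597-6544604: agaaaaaagtgaaaactatctaGTGCCAAA
Rbfox2, miR-182 8mer at chr15:77080240-77080247: aaggctcaccaactaccacagaTTGCCAAA
The Rbfox2 site is in 2 of 8 complete coding transcripts, and each Celf2 8mer in 6 of 14.

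No regulator passed the threshold of 0.05 on the adjusted p (limma on log2(RPKM + 1), Benjamini-Hochberg over the 13118 genes), where 7 of all genes were higher in miR_cKO (0.0534%) and 1 was lower (0.00762%), or 0.061% in either direction. At an unadjusted limma p under 0.05, 2 regulators were higher, Celf6 and Rbfox1, and 0 were lower, where 2.85% of all genes were higher and 5.16% differed in either direction at that level. The groups did not overlap for 3 of the 31: Celf6 and Rbfox1 were higher and Rbfox2 was lower in every miR_cKO library. Over all tested genes the groups did not overlap for 10.9%, with 4.63% higher and 6.24% lower, so the regulators' share was near this background. Log2 changes ran from -0.17 to 0.74, and 29 of 31 lay within 0.5 of 0. Of the regulators 18 had a log2 change above 0 and 13 below, with a median of 0.040, beside 40.4% above 0 and a median of -0.024 over all tested genes.

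**Figure D1:**
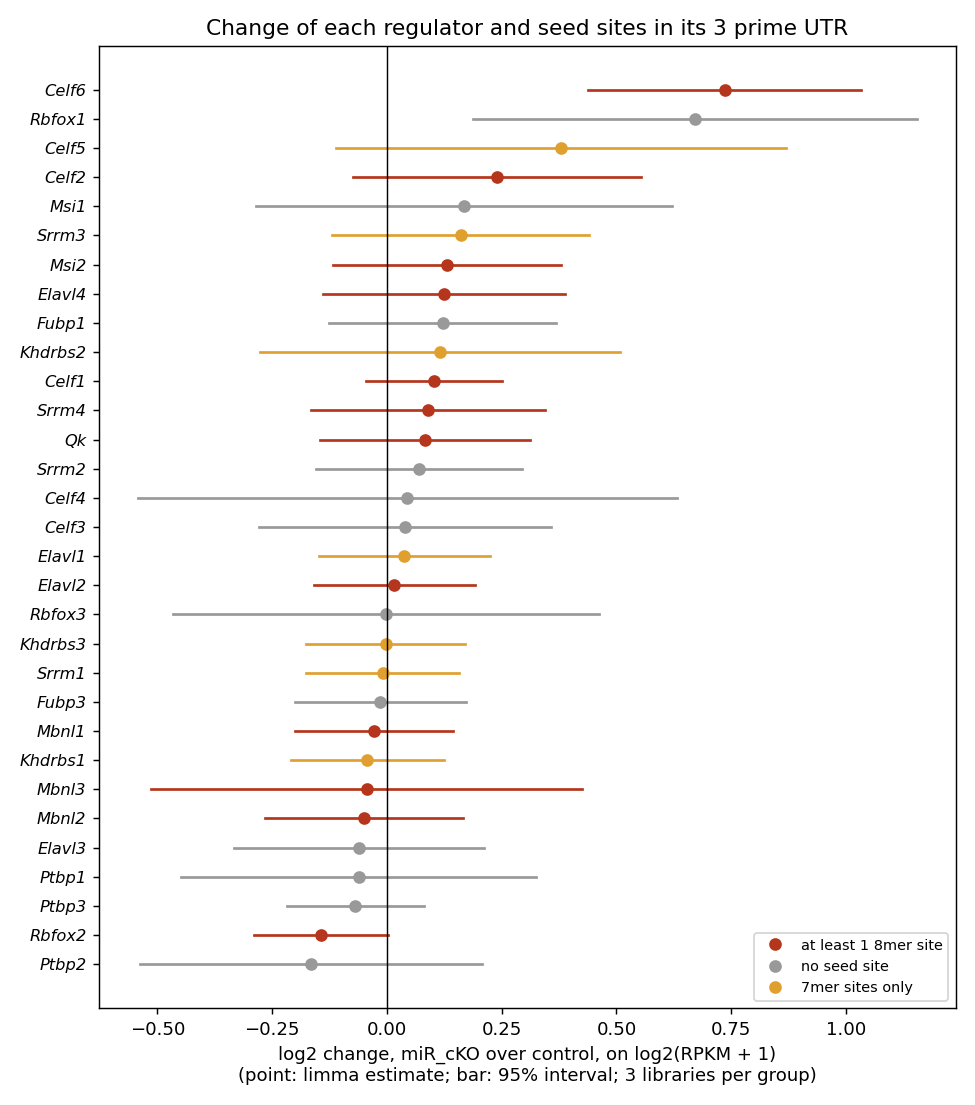
Log2 change of each regulator in miR_cKO over control on the log2(RPKM + 1) scale (x axis), with the limma estimate as a point and its 95% interval as a bar, 3 libraries per group, ordered by change and coloured by seed sites in the 3 prime UTR. The intervals of Celf6 and Rbfox1 lie above 0, and Celf6, with 2 8mer sites, leads at 0.74.

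The CELF family (CUGBP and Elav-like factors) binds GU-rich elements and controls both splicing and message decay. Celf6, expressed mainly in the nervous system, was at 4.76, 3.87 and 3.43 RPKM in miR_cKO 1 to 3, against 2.18, 1.82 and 2.00 RPKM in controls 1 to 3. Every miR_cKO library was above every control, and the control values lay close together. The means were 4.02 ± 0.679 RPKM in miR_cKO and 2.00 ± 0.184 RPKM in controls (SD, n = 3 each), a ratio of 2.01. The log2 change was 0.74 (SE 0.13, 95% interval 0.44 to 1.03), with a limma adjusted p of 0.174, and it ranked 47 by p among all tested genes. The library with the fewest Celf6 reads, control 3, held about 64.2 to 121, taking the shortest and longest coding transcript.

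The change of Celf6 kept its sign in each alternative fit in which Celf6 was tested, with log2 changes between 0.63 and 0.96. Without controls 2 and 3, the libraries with muscle RNA, it was 0.65, a value from 3 miR_cKO libraries and 1 control that was added after seeing the data and is given without a p, since the lone control has no spread of its own. Without miR_cKO 1, which had the highest Celf6 and neuron marker levels, it was 0.63 (limma adjusted p = 0.319). With the mean level of the neuron markers as a covariate, a fit chosen after seeing the data, the log2 change was 0.73 and limma gave an adjusted p of 0.0376.

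Celf5, which is also largely neuronal, was at 11.8, 8.01 and 9.41 RPKM in miR_cKO 1 to 3, against 7.58, 5.20 and 9.25 RPKM in controls 1 to 3. Its groups overlapped, since control 3 was above miR_cKO 2, and the log2 change of 0.38 had a 95% interval of -0.11 to 0.87. It was 0.18 without control 2, which had the lowest Celf5. Celf2, found in brain, heart and muscle, was at 13.8, 9.93 and 12.2 RPKM in miR_cKO and 9.48, 9.15 and 11.3 RPKM in controls 1 to 3. Control 3 again lay within the miR_cKO range, and the log2 change was 0.24, or 0.14 without miR_cKO 1. Celf1, the broadly expressed founder of the family, was at 34.0 to 36.8 RPKM in miR_cKO and 31.7 to 34.2 RPKM in controls, a log2 change of 0.10. Celf1 holds 4 sites, of which 1 is a miR-183 8mer, found in 5 of 9 complete coding transcripts.

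The neuronal members Celf3 and Celf4 hold no site in the searched UTRs. Celf3 was at 19.7 to 27.4 RPKM in miR_cKO and 22.8 to 25.8 RPKM in controls. Celf4 was at 4.97, 3.40 and 6.54 RPKM in miR_cKO 1 to 3 and 3.95, 3.81 and 6.59 RPKM in controls 1 to 3, so that library 3 was high in both groups. Their log2 changes were 0.040 and 0.045. All 6 family members had a log2 change above 0 with all libraries. With 1 library left out, Celf3 was below 0 without miR_cKO 1 (-0.033) and without miR_cKO 3 (-0.038), and Celf4 was below 0 without control 1 (-0.051), control 2 (-0.072) or miR_cKO 3 (-0.14).

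The RBFOX proteins bind UGCAUG and act as splicing switches in neurons and muscle. Rbfox1 was at 8.41, 6.95 and 7.44 RPKM in miR_cKO 1 to 3, against 3.87, 3.31 and 6.47 RPKM in controls 1 to 3. The miR_cKO values lay close together and control 3 came near them. The log2 change was 0.67 (SE 0.20, 95% interval 0.19 to 1.15), with a limma adjusted p of 0.714. It was 0.91 without control 3 and 0.51 without control 2. No seed site was found in the annotated 3 prime UTR of Rbfox1.

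Rbfox2, the most abundant of the 3, was at 72.3, 67.2 and 66.8 RPKM in miR_cKO 1 to 3, against 77.7, 73.7 and 76.5 RPKM in controls 1 to 3. Every miR_cKO library lay below every control, and the log2 change was -0.14 (SE 0.062, limma adjusted p = 0.968). Rbfox3, which encodes the neuronal marker NeuN, was at 22.5, 15.8 and 14.2 RPKM in miR_cKO and 17.7, 13.9 and 20.6 RPKM in controls 1 to 3. Its groups covered the same range, with a log2 change of -0.0026 and an interval of -0.47 to 0.46. Rbfox1 made up 8.10 ± 0.346% of the summed RBFOX level in miR_cKO and 4.59 ± 1.44% in controls (SD, n = 3 each).

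**Figure D2:**
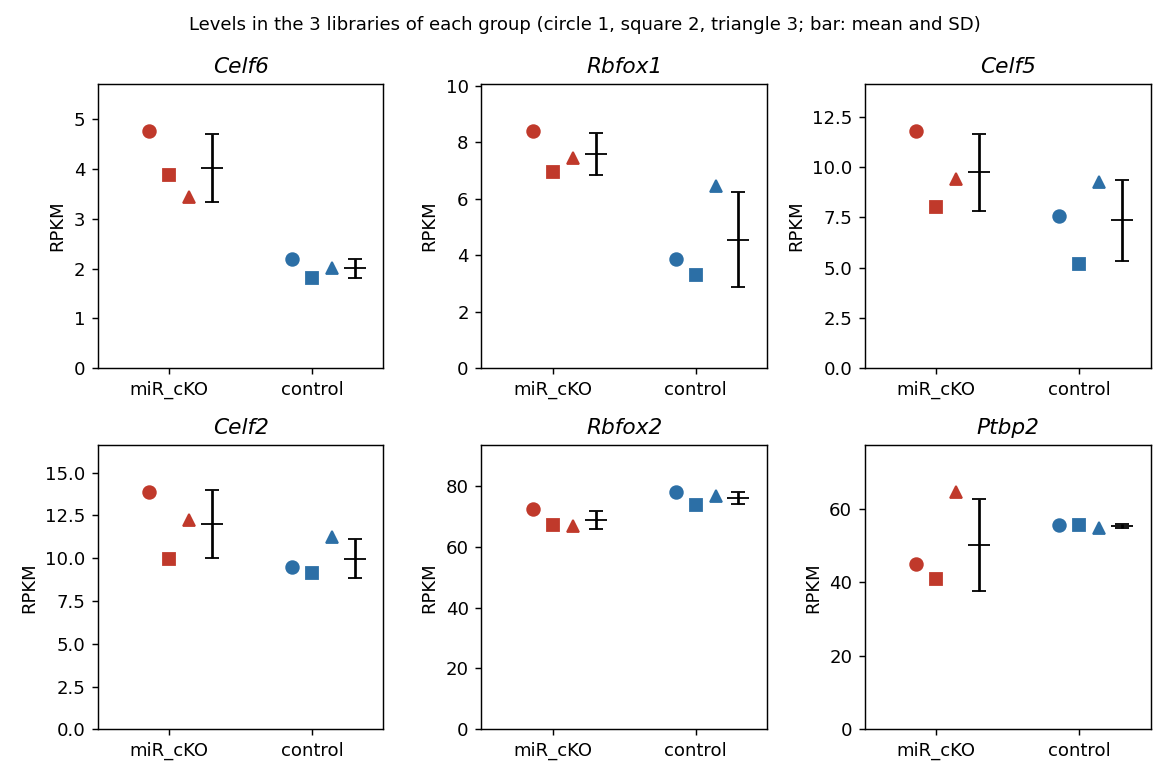
RPKM (y axis, from 0) of 6 regulators in the 3 miR_cKO libraries (red) and 3 control libraries (blue), with circles, squares and triangles for libraries 1, 2 and 3 and a black bar for mean and SD. Celf6 and Rbfox1 are higher in every miR_cKO library, Rbfox2 is lower in every one, and for Ptbp2 miR_cKO 3 stands above the controls at 64.4 RPKM while miR_cKO 1 and 2 stand below them.

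The ELAVL (Hu) proteins bind AU- and U-rich elements and stabilise messages. Elavl2, Elavl3 and Elavl4 mark postmitotic neurons, while Elavl1 is made in all cells. Elavl4 was the most abundant regulator, at 139, 128 and 114 RPKM in miR_cKO 1 to 3 and 130, 103 and 117 RPKM in controls 1 to 3, above 96.8% of tested genes. Elavl3 was at 87.8 to 112 RPKM in miR_cKO and 91.4 to 111 RPKM in controls, Elavl2 at 46.7 to 51.0 RPKM in miR_cKO and 45.3 to 52.1 RPKM in controls, and Elavl1 at 19.1 to 22.3 RPKM in miR_cKO and 19.2 to 21.0 RPKM in controls. The order Elavl4, Elavl3, Elavl2, Elavl1 held in each library. Log2 changes were 0.12, -0.061, 0.016 and 0.038 in that order, with no p under 0.05, and that of Elavl4 was 0.038 without control 2. Elavl4 took 43.0 ± 0.966% of the summed ELAVL level in miR_cKO and 40.4 ± 0.862% in controls (SD, n = 3 each). Elavl3 took 33.5 ± 1.35% in miR_cKO and 35.8 ± 0.935% in controls, and Elavl2 took 16.5 ± 0.998% in miR_cKO and 16.7 ± 0.665% in controls. Elavl4 and Elavl2 each hold a miR-182 8mer, and Elavl3 holds no site.

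**Figure D3:**
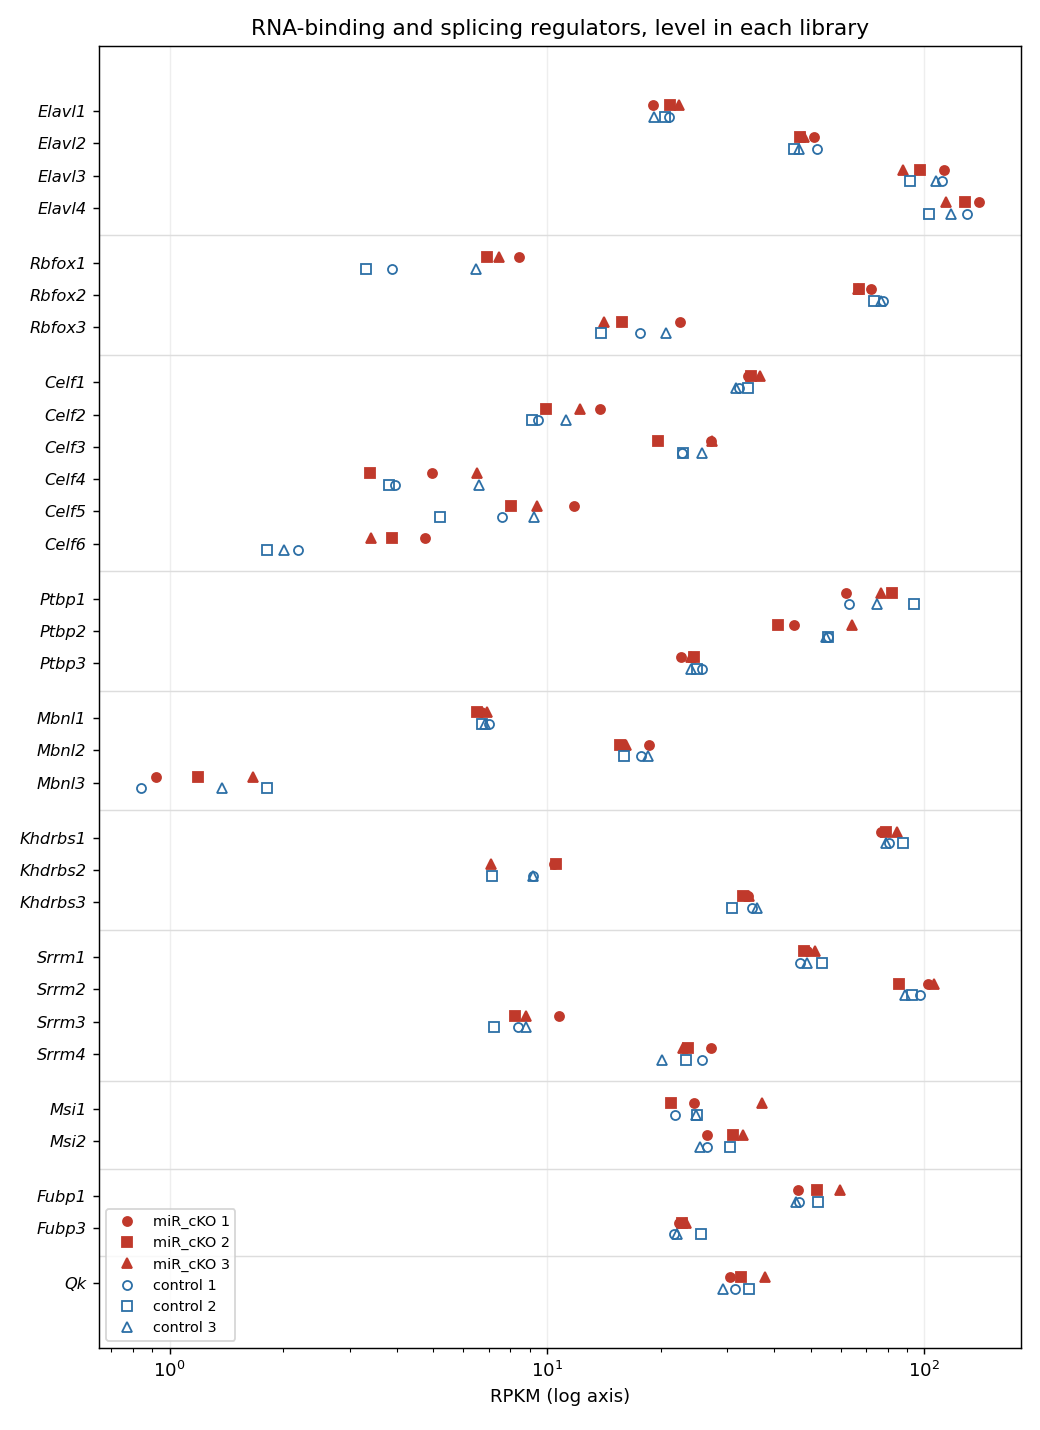
RPKM on a log axis (x) of all 31 regulators by family (rows), with filled red symbols for miR_cKO 1 to 3 above open blue symbols for controls 1 to 3. Levels run from 0.840 RPKM for Mbnl3 to 139 RPKM for Elavl4, and the groups of most regulators overlap.

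PTB proteins bind pyrimidine-rich tracts and mostly repress exons. Ptbp1, the form of progenitors, glia and non-neural cells, was at 62.1, 82.1 and 76.8 RPKM in miR_cKO 1 to 3, against 63.3, 94.1 and 74.8 RPKM in controls 1 to 3. Library 2 was the highest of its group in both. Ptbp2, the form of young neurons, was at 45.0, 41.0 and 64.4 RPKM in miR_cKO 1 to 3, against 55.7, 55.5 and 54.7 RPKM in controls 1 to 3. The controls spanned less than 1 RPKM, while the miR_cKO libraries lay on both sides of them. The log2 change of -0.17 was -0.36 without miR_cKO 3 and -0.036 without miR_cKO 2, and the limma adjusted p was 1.00 with all libraries and 0.469 without miR_cKO 3. Ptbp3 was at 22.6 to 24.5 RPKM in miR_cKO and 24.1 to 25.7 RPKM in controls. None of the 3 holds a seed site in the searched UTRs, and all 3 had log2 changes below 0 with all libraries. That of Ptbp1 was above 0 without control 2 (0.087), without miR_cKO 1 (0.055) and without controls 2 and 3 (0.21).

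MBNL proteins (muscleblind-like) bind YGCY motifs and promote adult splice forms. Mbnl2 was at 18.6, 15.6 and 16.2 RPKM in miR_cKO 1 to 3 and 17.8, 16.0 and 18.5 RPKM in controls 1 to 3. Mbnl1 was among the steadiest regulators, at 6.53 to 6.93 RPKM in miR_cKO and 6.71 to 7.01 RPKM in controls, with a log2 change of -0.028 and an interval of -0.20 to 0.14. With median centring the log2 change of Mbnl1 was 0.0018. Both hold an 8mer. Mbnl3, a gene of the X chromosome that is associated with proliferating cells, was the lowest regulator, at 0.921, 1.19 and 1.67 RPKM in miR_cKO 1 to 3 and 0.840, 1.81 and 1.37 RPKM in controls 1 to 3. It holds 4 sites, 2 of them 8mers, each in 1 of 4 complete coding transcripts, and its log2 change was -0.044 with an interval of -0.51 to 0.43. Its smallest value rests on about 29.7 to 84.6 reads.

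The KHDRBS proteins (Sam68 and the SLM proteins) bind U(U/A)AA-rich RNA. Khdrbs1 (Sam68), which is ubiquitous, was at 76.9 to 84.4 RPKM in miR_cKO and 79.2 to 87.9 RPKM in controls. Khdrbs3 (SLM2, also called T-STAR), a splicing regulator of neurexin messages, was at 33.0 to 34.4 RPKM in miR_cKO and 30.9 to 36.1 RPKM in controls, a log2 change of -0.0030 with an interval of -0.18 to 0.17. Khdrbs2 (SLM1), found in neurons, was at 10.5, 10.6 and 7.11 RPKM in miR_cKO 1 to 3, against 9.17, 7.16 and 9.18 RPKM in controls 1 to 3. Its lowest libraries, miR_cKO 3 and control 2, were also those with the lowest sums of neuron markers.

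SRRM proteins are serine- and arginine-rich splicing factors. Srrm3 and Srrm4 drive inclusion of neuronal microexons, and Srrm1 and Srrm2 belong to the general splicing machinery. Srrm4 was at 27.3, 23.7 and 22.9 RPKM in miR_cKO 1 to 3 and 25.8, 23.3 and 20.2 RPKM in controls 1 to 3. Srrm3 was at 10.8, 8.21 and 8.77 RPKM in miR_cKO and 8.37, 7.25 and 8.80 RPKM in controls. The groups of both overlapped, with log2 changes of 0.090 and 0.16. Srrm4 holds 4 sites, of which 1 is a miR-182 8mer, and Srrm3 holds 1 site, a miR-96 7mer. Srrm2 was at 85.5 to 106 RPKM in miR_cKO and 88.7 to 97.1 RPKM in controls, and Srrm1 at 48.0 to 51.3 RPKM in miR_cKO and 46.9 to 53.6 RPKM in controls.

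The Musashi proteins bind UAG motifs and control translation and splicing in neural progenitors. Msi1 was at 24.6, 21.3 and 37.2 RPKM in miR_cKO 1 to 3, against 21.9, 24.9 and 24.8 RPKM in controls 1 to 3. miR_cKO 3 alone was high, and the log2 change of 0.17 was -0.058 without it. Msi2 was at 26.5 to 33.1 RPKM in miR_cKO and 25.5 to 30.5 RPKM in controls. The far upstream element binding proteins Fubp1 and Fubp3, which bind single-stranded DNA and RNA, had log2 changes of 0.12 and -0.014. Fubp1 was at 46.3, 52.0 and 59.8 RPKM in miR_cKO 1 to 3 and 46.6, 52.1 and 45.8 RPKM in controls 1 to 3. Qk (quaking), a regulator of glial differentiation that binds ACUAAY elements, holds 8 sites, the most of any regulator, 3 of them miR-182 8mers. Each of these sites is in 1 or 2 of 3 complete coding transcripts. Qk was at 30.6, 32.6 and 37.7 RPKM in miR_cKO 1 to 3 and 31.6, 34.2 and 29.3 RPKM in controls 1 to 3, with overlapping groups and a log2 change of 0.082. The highest values of Msi1, Msi2, Fubp1 and Qk were all in miR_cKO 3.

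Within each library, paralogs were compared as 21 log2 ratios of log2(RPKM + 1) values. The ratio did not overlap between groups for 2 of 21 pairs, and both pairs hold genes already named for that reason. Levels of single genes did not overlap for 10.9% of all tested genes. No such share was computed for ratios, and many pairs of a family share the same denominator. No pair had an adjusted p below 1.00 (two-sided exact permutation test, smallest possible p 0.1, Benjamini-Hochberg over 21 pairs). The ratio of Rbfox1 to Rbfox2 was -2.96, -3.10 and -3.01 in miR_cKO 1 to 3 and -4.01, -4.12 and -3.38 in controls 1 to 3, a difference of 0.81 (exact permutation p = 0.1). The ratio of Celf6 to Celf1 was -2.60, -2.88 and -3.09 in miR_cKO 1 to 3 and -3.38, -3.64 and -3.44 in controls 1 to 3, a difference of 0.63 (exact permutation p = 0.1). Both ratios were higher in 3 of 3 miR_cKO libraries than in any control. The ratio of Ptbp2 to Ptbp1 differed by -0.10 with overlapping groups, and by 0.11 without miR_cKO 2 and 0.035 without control 1. In whole ganglia this ratio cannot tell a change within neurons from a change in the mix of cells. Ratios of Mbnl2 to Mbnl1 and Khdrbs3 to Khdrbs1 differed by -0.022 and 0.040.

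**Figure D4:**
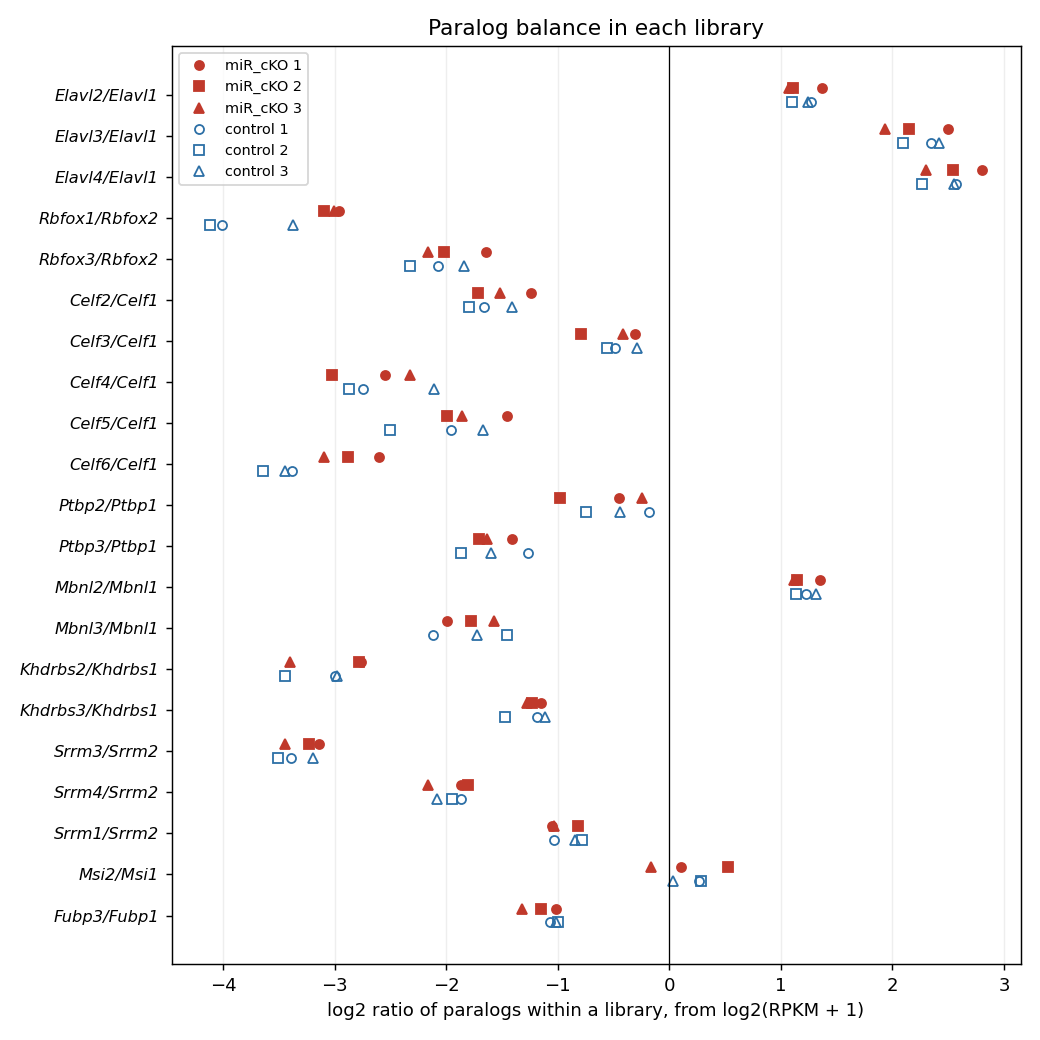
Log2 ratio of each paralog pair within a library (x axis, from log2(RPKM + 1) values), with filled red symbols for miR_cKO 1 to 3 above open blue symbols for controls 1 to 3. Groups separate for Rbfox1 over Rbfox2 and for Celf6 over Celf1 and overlap for the other 19 pairs.

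The 13 regulators classed as neuron-restricted by background knowledge (Elavl2 to Elavl4, Rbfox1, Rbfox3, Celf3 to Celf6, Ptbp2, Khdrbs2, Srrm3 and Srrm4) were also summed. The class was chosen with earlier results of these data known. It is not strict, since RBFOX proteins such as Rbfox1 also act in muscle, and muscle marker sums differed between libraries. The 13 reached 476, 413 and 421 RPKM in miR_cKO 1 to 3 and 450, 384 and 435 RPKM in controls 1 to 3. The other 18 reached 663, 668 and 731 RPKM in miR_cKO 1 to 3 and 663, 714 and 665 RPKM in controls 1 to 3. miR_cKO 1 had the highest sum of both the neuron-restricted regulators and the neuron markers, and control 2 the lowest sum of these regulators. miR_cKO 1 held the highest value of 8 of the 13, and control 2 the lowest of 7. Of the 13, 10 had a log2 change above 0, with a median of 0.090, beside 8 of the other 18, with a median of -0.0062. Of the 16 neuron markers 6 were above 0, and their median was -0.030. With the neuron markers as a covariate, 5 of all the regulators were higher and 1 was lower at an unadjusted limma p under 0.05. The 5 were Celf6, Rbfox1, Celf5, Msi2 and Fubp1, and the 1 was Rbfox2. Msi2, Fubp1 and Rbfox2 are outside the neuron-restricted class. At that level 614 of all 13118 genes were higher and 682 lower in this fit, against 374 and 303 without the covariate. The log2 changes of Rbfox1, Celf5 and Rbfox2 were 0.66, 0.37 and -0.15 with it. Summed neuron markers ran from 3599 to 5448 RPKM in miR_cKO and from 3763 to 4774 RPKM in controls. The groups overlapped in these sums. The covariate was the mean log2(RPKM + 1) of the same markers, and whether neuron content plays a part was not tested.

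**Figure D5:**
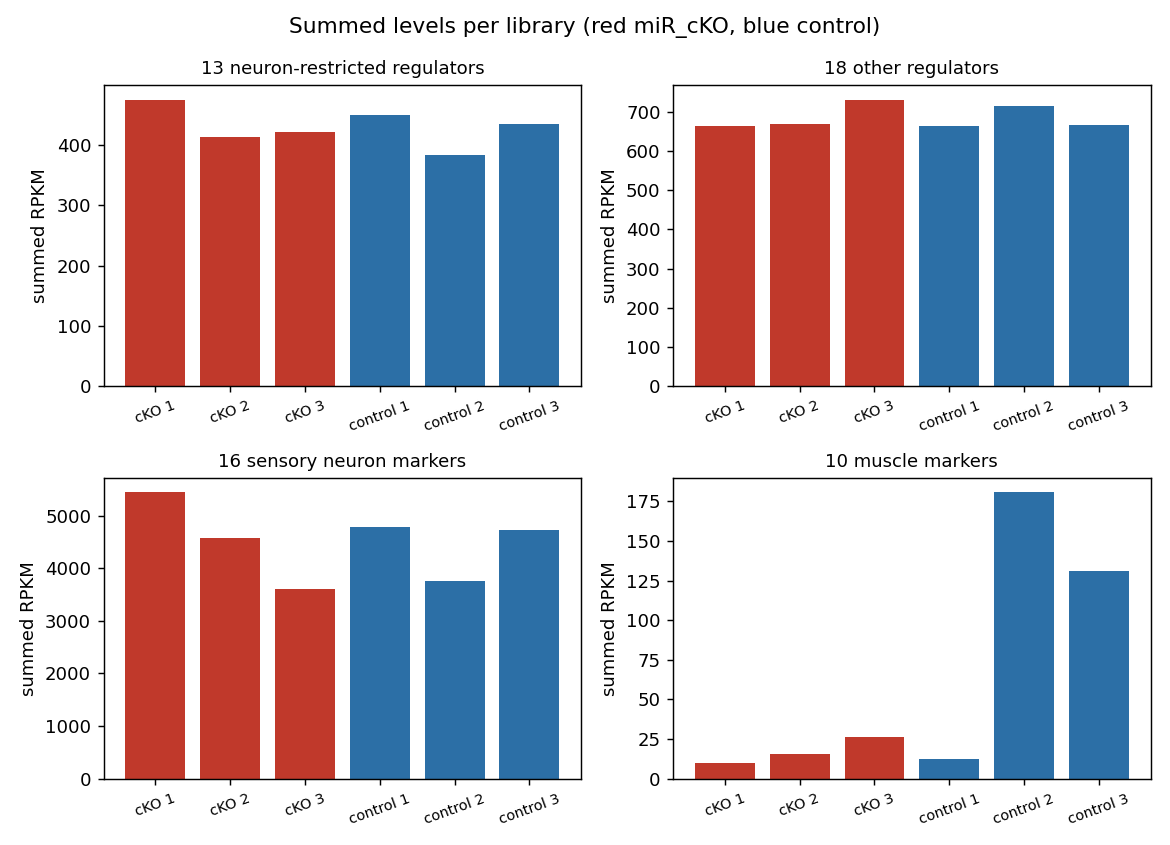
Summed RPKM per library (bars, from 0) of the 13 regulators classed as neuron-restricted, the 18 other regulators, 16 sensory neuron markers and 10 muscle markers. Bars of miR_cKO 1 to 3 are red and those of controls 1 to 3 are blue. Both neuronal sums are highest in miR_cKO 1, and the muscle sum is high in controls 2 and 3 alone.

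By seed sites, the 19 regulators with a site had a median log2 change of 0.082, with 12 above 0, and the 12 without a site one of 0.019, with 6 above 0. Over all tested genes with a 3 prime UTR, the median was 0.0014 with a site, where 2285 of 4506 were above 0. Without a site it was -0.037, where 2594 of 7612 were above 0. Within the range of UTR lengths named above, the order of the regulators was the reverse. There the 8 with a site had a median of -0.0058, with 4 above 0. The 7 without a site had a median of 0.045, with 4 above 0. Tested genes in that range had medians of 0.0020 with a site and -0.035 without. The regulators were not tested as a list. Number of sites and size of change did not go together in every case, as Celf6 with 3 sites had 0.74, Qk with 8 had 0.082 and Mbnl3 with 4 had -0.044. Sites were counted over all complete coding transcripts of a gene, and no site of Qk or Mbnl3 is in all of them.

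Among RNA-binding proteins outside these families, Nova2, a neuronal splicing regulator, was the single gene past the threshold, at 22.4, 15.2 and 18.1 RPKM in miR_cKO 1 to 3, against 4.73, 5.06 and 4.79 RPKM in controls 1 to 3 (log2 change 1.72, limma adjusted p = 0.0428). Its log2 change lay between 1.58 and 1.89 over 15 alternatives, of which 6 kept the call and 9 did not, among them upper quartile scaling (limma adjusted p = 0.0601), no trend or robust setting (0.0891), the replicate block (0.149) and the fits without any 1 library other than miR_cKO 1. Its paralog Nova1 was at 3.20, 2.46 and 5.46 RPKM in miR_cKO and 1.95, 2.28 and 4.65 RPKM in controls. Of the 22 other splicing regulators tested, 1 was called higher, 0 lower, and the median log2 change was 0.032. Of 13 SR proteins, the serine- and arginine-rich activators of exons, and of 23 hnRNPs, which often repress exons, 0 were called by limma and 0 had an unadjusted p under 0.05, with medians of 0.033 and 0.012. The genes with the smallest p were Srsf11 and Srsf9, with log2 changes of 0.086 and -0.12, and Hnrnph3 and Hnrnpul1, with 0.12 and -0.071. Of 26 proteins of message translation and localisation 0 were called by limma and 2 had an unadjusted p under 0.05. These were Lin28a, a repressor of let-7 processing, at 1.53, 2.38 and 1.60 RPKM in miR_cKO 1 to 3 and 0.645, 0.949 and 0.462 RPKM in controls 1 to 3 (limma adjusted p = 0.402), and Zfp36l2, which promotes decay of AU-rich messages, with a log2 change of -0.23 (limma adjusted p = 0.888).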

How the data were processed

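RNA of 3 miR_cKO and 3 control libraries was sequenced from a stranded kit for polyadenylated RNA, per the labels' protocols. The submitters' processing notes name Bowtie and mm10; no source used here states the counting tool or its use of strand. The authors deposited 1 table of values per gene and library with a decimal comma and no named unit. The deposited values were read as RPKM because, times transcript length, low values fell on steps: 48.2 to 51.7% of values under 12 reads in genes with 1 transcript lay within 0.1 read of a whole number, where 20% would by chance. RPKM and FPKM cannot be told apart. Depth was estimated from these steps and rests on GENCODE lengths. The table held 0 sample columns beyond these 6.

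Genes with at least 1 RPKM in at least 3 libraries were compared on log2(RPKM + 1) with limma 3.58.1 in R 4.3.3 (trend and robust settings, Benjamini-Hochberg over 13118 genes, threshold 0.05). Fold changes on this scale understate those of low genes. In simulated data these 13118 genes were drawn as independent and normal. Both groups took each gene's spread from its 3 control libraries, with a floor on small values. There limma called 70% of genes given a log2 change of 1 and 41% of genes given 0.5, and 6.72% of its calls were false. The spread of the miR_cKO libraries was not used, so these rates may not hold for the measured libraries. Paralog ratios were tested by exact permutation in SciPy 1.17.1. Replicates are separate samples by the labels, and p-values measure the spread between these samples.

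Names matched GENCODE M21 directly for 20883 table rows and through a RefSeq synonym for 1748. Exons of 9 of the 31 regulators overlap another annotated gene: Elavl1, Elavl3, Celf2, Celf5, Ptbp1, Ptbp3, Mbnl2, Srrm2 and Srrm4. Their values may include reads of that gene. Every regulator is named, with the genes past the threshold, or else the 2 with the smallest p, of each other list, and Nova1. The regulators, lists, neuron-restricted class and rules were chosen with earlier results of these data known. Alternatives were another pseudocount, filters, scalings, limma settings, a replicate block and leaving out libraries.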

Additional observations from a re-analysis of the deposited data

How the results depend on the processing

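No regulator was called by limma under any of these alternatives (pseudocount 0.1, no filter, a minimum of 10 RPKM, upper quartile scaling, median centring, no trend or robust setting, replicate block, each library left out). With the neuron marker covariate, chosen after seeing the data, 1 regulator (Celf6) was called higher, among 45 higher and 16 lower genes in all. The 7 higher and 1 lower genes called over all genes became 0 and 0 with upper quartile scaling, with no trend or robust setting and with the replicate block, and 2 and 0 with median centring, beside 381 to 485 higher and 203 to 449 lower genes at an unadjusted limma p under 0.05. The lower count was 3 without a filter. Without controls 2 and 3, added after seeing the data, 0 higher and 0 lower genes were called by limma (285 and 110 at an unadjusted p under 0.05), but this fit has 1 control, assumed to vary like the miR_cKO libraries, and says nothing on stability. With 1 library left out, 0 to 2 higher and 0 to 1 lower genes were called. Paralog pairs that did not overlap numbered 2 to 4 with 1 library left out (4 without miR_cKO 3), and 2 with all. Of the 31 regulators, 17 changed sign in at least 1 alternative, each with a log2 change within 0.17 of 0 with all libraries. The limma adjusted p of Celf6 was 0.0376 with the neuron marker covariate. Over its other alternatives, apart from the fit without controls 2 and 3, it ran from 0.157 to 0.622. The replicate block changed no call of a regulator; the deviations of libraries of the same number correlated at 0.36, 0.33 and -0.22, so the numbers were not taken to pair the libraries, and not every library correlated best with its own number. At an unadjusted p under 0.05, 0 to 3 regulators were higher and 0 to 1 lower under the alternatives other than the covariate. A minimum of 10 RPKM removed Celf6 and Rbfox1. With 3 libraries per group, changes of 0.5 on the log2 scale were often missed in simulated data, so the uncalled regulators are not shown to be unchanged.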
